A study of Mus musculus with 8 samples.

Results

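Etv4 encodes an ETS transcription factor of the PEA3 group, and it is described here with 8 genes that belong to its family or to the feedback arm of the FGF-ERK pathway: the PEA3 relatives Etv1 and Etv5, the Sprouty genes Spry2 and Spry4, the Spred genes Spred1 and Spred2, and the MAP kinase phosphatase genes Dusp4 and Dusp6. Etv4 was selected on its measured values in these livers, because it was evenly higher in all Con-DHT mice, whereas the other 8 were set beside it for their place in the pathway. All 9 were found by symbol among the 14317 mouse genes of the normalized table, and all 9 were among the 14312 with a mean normalized count of at least 10 that entered the test. Liver RNA came from female mice on WD, which the labels list as WT. Con-DHT mice carried a silastic pellet with 10 mm of dihydrotestosterone (DHT) for 8.5 weeks and Con-Veh mice an empty pellet, and all were fasted overnight before the liver was taken. There were 4 mice and 4 libraries in each group, in adult animals, and neither batch nor litter is given in the labels.

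In the FGF-ERK pathway, fibroblast growth factors and other ligands of receptor tyrosine kinases act through adaptors and RAS to switch on the kinases RAF, MEK and ERK. ERK signaling relieves repression by capicua and raises transcription of the PEA3 genes, and it also induces its own inhibitors: Sprouty and Spred proteins act upstream, near RAS and RAF, and DUSP proteins remove phosphate from ERK itself. Together these transcripts are widely used as a readout of the pathway. In liver the best known branch runs from an ileal FGF through FGFR4 and its coreceptor beta-klotho to bile acid synthesis. Neither phosphorylated ERK nor protein was measured in these libraries, so the values below are RNA levels only.

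The libraries held between 13123962 and 17815944 reads on mouse genes (median 15439690 among Con-Veh and 14375913 among Con-DHT libraries). Values are normalized counts, which are reads per gene divided by a size factor of the library, and 1 read was worth about 1 unit, since 3 reads corresponded to values between 2.61 and 3.30. Etv4, Etv1, Spry2 and Dusp4 rested on few reads, with 17 to 120 reads per library for Etv4, 20 to 46 for Etv1, 15 to 48 for Spry2 and 20 to 54 for Dusp4. Dusp6 was the most deeply counted of the 9, with 366 to 1024 reads. The 6 hepatocyte markers, among them albumin and transthyretin, summed to between 901164 and 1713148 in Con-Veh and between 941199 and 1113537 in Con-DHT and none of them was called. None of the exons of the 9 genes overlaps an exon of another gene in GENCODE M21.

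Etv4, on chromosome 11, had normalized counts of 25.3, 16.4, 18.0 and 15.7 in the 4 Con-Veh livers and of 103, 96.8, 107 and 130 in the 4 Con-DHT livers. The groups were far apart: the lowest Con-DHT liver lay well above the highest Con-Veh liver, and within Con-DHT the highest liver was only 1.35 times the lowest. The means were 18.8 ± 4.41 and 109 ± 14.7 (SD, n = 4), a ratio of 5.81, and the log2 fold change was 2.49 (SE 0.19). Among all tested genes, 98 had a larger log2 fold change. These values chose the gene, so they are given as a description and no test is reported for them.

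Etv1, the PEA3 relative on chromosome 12, also separated the groups. Its normalized counts were 22.0, 22.2, 24.0 and 21.8 in Con-Veh, a spread of 4.47% (coefficient of variation), and 45.1, 38.7, 42.9 and 32.6 in Con-DHT. With 20 to 46 reads per library over both groups, this small Con-Veh spread may understate the variation between mice. Every Con-DHT liver was above every Con-Veh liver, and the mean rose from 22.5 ± 1.01 to 39.8 ± 5.50 (SD, n = 4), a ratio of 1.77. The log2 fold change was 0.79 (95% interval 0.38 to 1.19), with an adjusted p of 0.029 by limma with Benjamini-Hochberg adjustment over all tested genes. The call was sensitive to the number of mice: it was kept without Con-DHT replicate 4 or Con-Veh replicate 3 and lost without any of the other 6 livers, with adjusted p values between 0.033 and 0.079 over the 8 fits, while the fold change stayed between 0.73 and 0.88. Scaled by the spike-ins instead, its log2 fold change was 0.98 and its adjusted p 0.186 by limma. The spike-ins took 1.68% to 3.61% of the reads in the Con-Veh libraries and 2.22% to 2.75% in the Con-DHT libraries, so this scaling itself varied within groups.

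Etv5, the third PEA3 gene, overlapped between the groups. It measured 49.5, 51.2, 54.9 and 40.0 in Con-Veh and 75.5, 54.2, 52.1 and 44.6 in Con-DHT. Con-DHT replicate 1 was the highest of all 8 livers, and the other 3 Con-DHT livers fell within the Con-Veh range. The log2 fold change was 0.19 (95% interval -0.24 to 0.62, adjusted p = 0.608 by limma). The 3 PEA3 genes thus differed in fold change from 0.19 to 2.49 on the log2 scale, and those differences between genes were not tested.

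**Figure D1:**
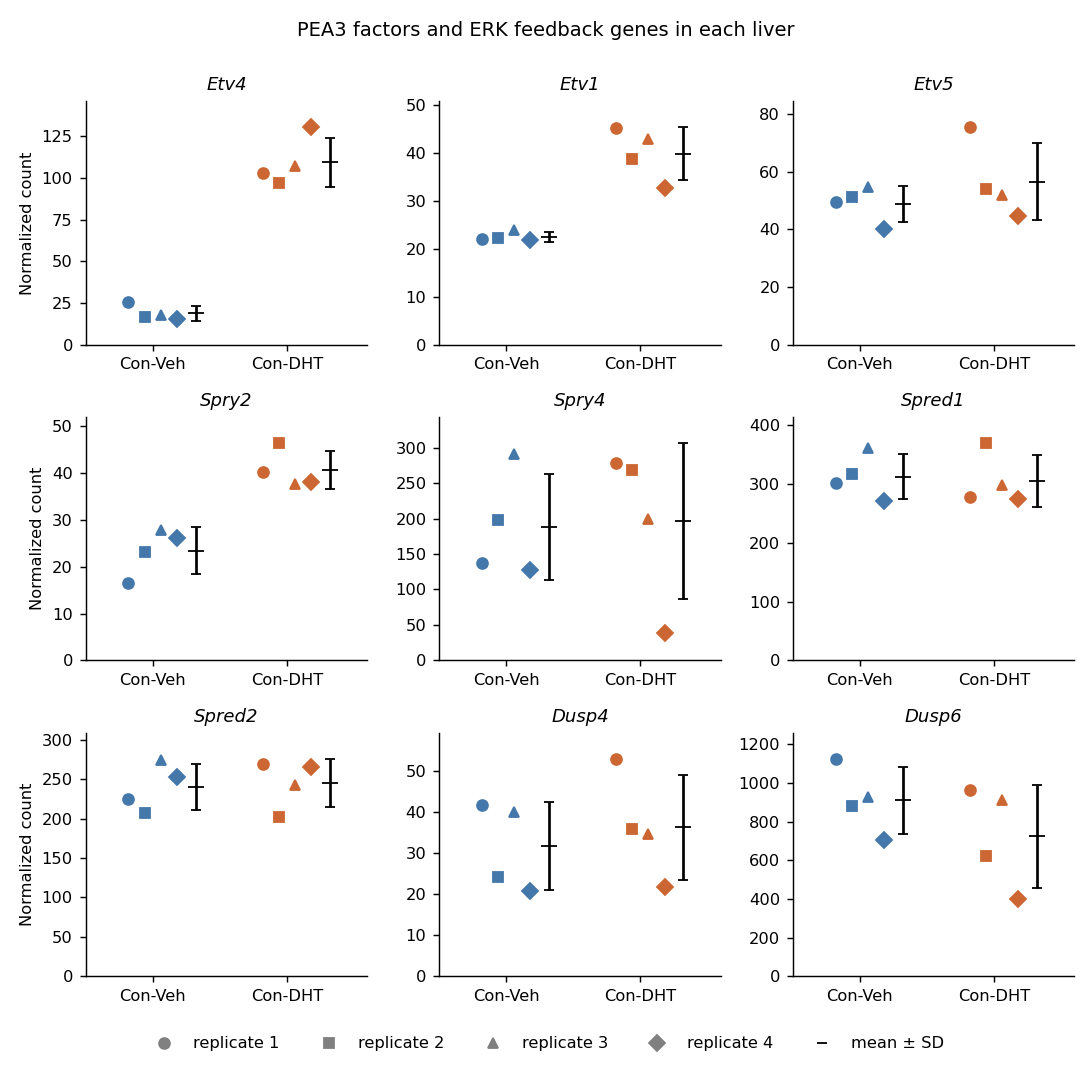
Normalized counts of the 9 genes (vertical axes, each from 0) in each Con-Veh and Con-DHT liver, with replicates marked by shape and the mean ± SD of 4 livers in black. Etv4, Etv1 and Spry2 do not overlap between the groups, whereas the other 6 do, and Con-DHT replicate 4 (diamond) is highest of its group for Etv4 and lowest for Spry4, Dusp4 and Dusp6.

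Among the feedback inhibitors, Spry2 was the gene whose groups did not overlap. Sprouty2 is a membrane-associated adaptor that blunts RAS-ERK signaling downstream of growth factor receptors. Its normalized counts were 16.5, 23.2, 27.95 and 26.1 in Con-Veh and 40.2, 46.5, 37.8 and 38.0 in Con-DHT. The groups did not overlap, and the mean was 23.4 ± 5.03 in Con-Veh and 40.6 ± 4.04 in Con-DHT (SD, n = 4), a ratio of 1.73. The log2 fold change was 0.79 (95% interval 0.32 to 1.26), the same size as that of Etv1, and its adjusted p of 0.0501 by limma lay just outside the threshold of 0.05. DESeq2 on the recovered reads gave an adjusted p of 0.038 and edgeR 0.052, and the limma value was between 0.054 and 0.128 when each liver was left out in turn.

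Spry4, its paralog, was the most variable of the 9 genes. It measured 137, 198, 290 and 127 in Con-Veh and 278, 268, 200 and 39.1 in Con-DHT. The groups overlapped, and Con-DHT replicate 4 stood far below the other 7 livers, so that the highest Con-DHT liver was 7.09 times the lowest. Its SD within groups on the log2 scale was 1.01, larger than that of 98.7% of all tested genes. The log2 fold change was -0.19 (95% interval -1.43 to 1.05, adjusted p = 0.877 by limma) and it was 0.46 without Con-DHT replicate 4 (adjusted p = 0.364). Its sign also turned under edgeR and DESeq2, with log2 fold changes of 0.069 and 0.059.

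The Spred genes, whose products bring neurofibromin to RAS, were steady across the livers. Spred1 ranged from 272 to 361 in Con-Veh and from 274 to 370 in Con-DHT, and the log2 fold change was -0.04 (95% interval -0.31 to 0.23). Spred2 ranged from 207 to 275 and from 202 to 270, with a log2 fold change of 0.03 (95% interval -0.25 to 0.31). Both overlapped almost completely between the groups, with adjusted p values of 0.887 and 0.918 by limma, and neither interval reached the fold changes of Etv1 or Spry2. The sign of the change of Spred1 was reversed, to 0.16, with spike-in scaling, which moved the median log2 fold change of all genes from -0.0081 to 0.19.

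Of the phosphatase genes, Dusp6, which encodes the cytoplasmic phosphatase specific for ERK, had a lower mean in Con-DHT, by less than the spread between livers. Its normalized counts were 1126, 883, 930 and 705 in Con-Veh and 963, 621, 912 and 398 in Con-DHT. The ranges overlapped, and the 2 lowest livers of the 8 were Con-DHT replicates 2 and 4. The means were 911 ± 173 and 724 ± 264 (SD, n = 4), with a log2 fold change of -0.40 (95% interval -0.97 to 0.17, adjusted p = 0.397 by limma), and the fold change was -0.14 without Con-DHT replicate 4. Dusp4, which encodes a nuclear phosphatase, measured 41.8, 24.1, 39.9 and 20.9 in Con-Veh and 53.0, 35.8, 34.7 and 21.7 in Con-DHT, ranges that overlapped. Its log2 fold change was 0.19 (95% interval -0.51 to 0.88, adjusted p = 0.779 by limma).

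Of the 8 genes besides Etv4, then, 1 was called higher and 0 were called lower by limma (adjusted p of 0.05 or less), against 4.6% and 2.61% of all tested genes in these directions and 7.21% in both together. By edgeR the count was 1 of 8, against 7.15% of all genes, and by DESeq2 it was 2 of 8, against 11%. In 2 of 8 the groups did not overlap with Con-DHT higher, against 8.49% of all tested genes, and in 0 of 8 with Con-DHT lower, against 6.62%. At an unadjusted p of at most 0.05 there were again 2 of 8, close to the 23.2% of all genes. The median log2 fold change of the 8 was 0.11, against -0.0081 for all tested genes, and 5 of 8 were above 0.

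**Figure D2:**
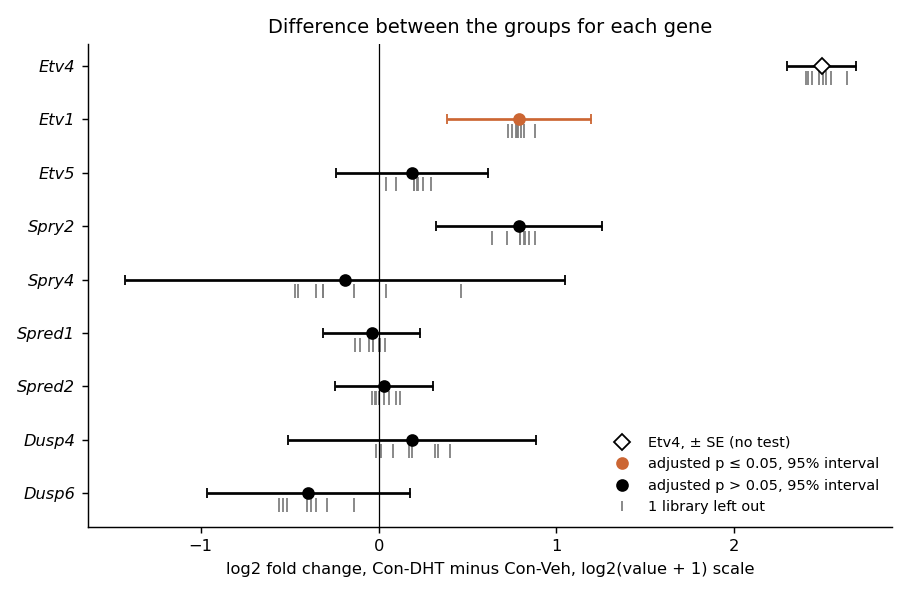
Log2 fold change of each gene (horizontal axis, Con-DHT minus Con-Veh on the log2(value + 1) scale), with the 95% interval for the 8 tested genes, the SE for Etv4, and grey ticks for the fits that leave out 1 library. Etv4 lies at 2.49, Etv1 and Spry2 both at 0.79, and the intervals of the other 6 genes cross 0.

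The livers also differed in which genes were low. Con-DHT replicate 4 was the lowest of its group for 6 of the 9 genes (Etv1, Etv5, Dusp4, Dusp6, Spry4 and Spred1), against 27.3% of all tested genes, and it was the highest for Etv4. Con-Veh replicate 4 was the lowest of its group for 7 of the 9 (all but Spry2 and Spred2), against 22.9% of all tested genes. Con-DHT replicate 1 was the highest of its group for 6 of the 9, against 24.7% of all tested genes, and so was Con-Veh replicate 3, against 25.4%. The livers that were lowest in Dusp6 were therefore also the lowest in Spry4 and Dusp4 in either group, while the level of Etv4 did not follow this order within Con-DHT.

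To set different genes side by side, counts were divided by the union of annotated exons, which can differ from the transcript made in liver. That length was 13296 bases for Etv1 and 3104 for Etv4, whose Con-Veh means before division were 22.5 and 18.8. Per kilobase of exon, Dusp6 was by far the most abundant of the 9 in Con-Veh, with a mean of 291 normalized counts per kb. Spred2, Spred1 and Spry4 followed at 51.9, 46.1 and 39.6, and each of these overlapped with its neighbor in the order. Etv5, Dusp4 and Spry2 lay together at 11.9, 11.6 and 11.2 with overlapping ranges, above Etv4 at 6.07 and Etv1 at 1.69. Etv4 overlapped with Spry2 (its range was 5.05 to 8.15, and that of Spry2 7.90 to 13.4), and Etv1 was apart from all. In Con-DHT, Etv4 moved from the eighth to the fifth place, at 35.2 normalized counts per kb, where its range of 31.2 to 42.0 overlapped with that of Spry4 (8.23 to 58.4) and was apart from that of Spry2 (18.1 to 22.3) below it. Etv1 stayed last, at 3.00, also after its increase.

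**Figure D3:**
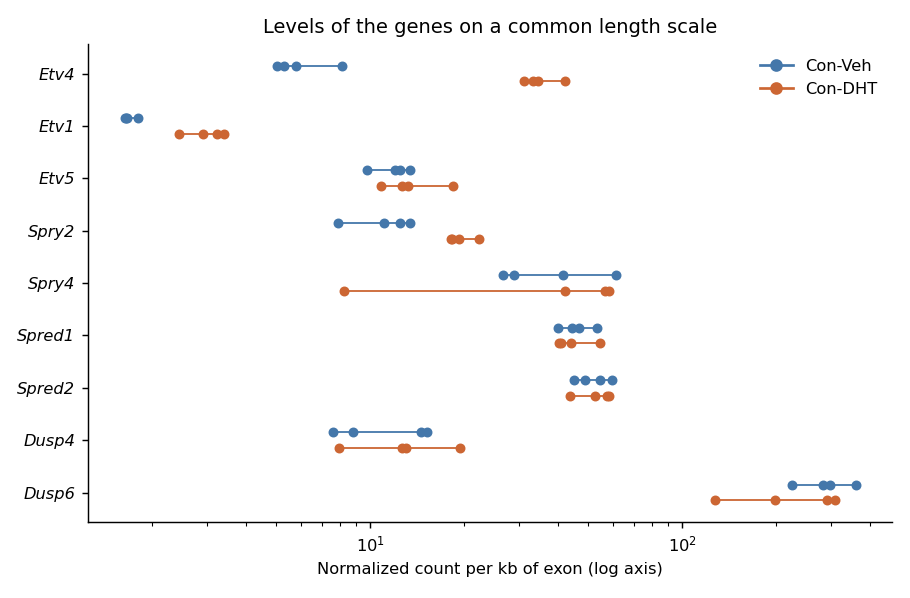
Normalized counts per kb of exon (horizontal log axis) for the 9 genes, with a point for each Con-Veh (blue) and Con-DHT (orange) liver and a line over the range of the group. Etv4 moves from a Con-Veh range of 5.05 to 8.15 to a Con-DHT range of 31.2 to 42.0, while Dusp6 lies highest and Etv1 lowest in both groups.

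Promoter sequences are shown for Etv1 and Spry2, whose RNA levels did not overlap between the groups, and for Dusp6, whose levels did. No promoter window was at hand for Etv4, which had the largest log2 fold change of the 9. The sequences are from RefSeq on GRCm38.p6, another build than the GRCm39 named in the submitters' processing notes, and they cover the 250 bases before each annotated start. RefSeq windows were at hand for 6 of the 9 genes (Etv1, Etv5, Dusp6, Spry2, Spred1 and Spred2). The windows, with the 50 bases after the start added, were searched on both strands for the capicua octamers TGAATGAA and TCAATGAA, the ETS octamers CCGGAAGT and CCGGAAGC, and the AP-1 heptamers TGACTCA and TGAGTCA. A match is in capitals.
Etv1, upstream start, chr12:38779832-38780081 (plus strand): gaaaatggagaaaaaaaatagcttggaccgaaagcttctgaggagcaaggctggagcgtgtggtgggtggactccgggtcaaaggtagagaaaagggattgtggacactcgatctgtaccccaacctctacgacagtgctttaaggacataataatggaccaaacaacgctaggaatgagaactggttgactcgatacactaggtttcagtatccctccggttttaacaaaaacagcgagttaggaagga
Etv1, downstream start, chr12:38783461-38783710 (plus strand): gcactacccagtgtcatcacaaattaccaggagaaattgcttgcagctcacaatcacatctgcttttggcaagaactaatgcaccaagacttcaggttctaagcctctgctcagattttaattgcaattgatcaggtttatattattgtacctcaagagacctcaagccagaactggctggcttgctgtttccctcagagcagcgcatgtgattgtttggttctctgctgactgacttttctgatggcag
Spry2, chr14:105896820-105897069 (minus strand): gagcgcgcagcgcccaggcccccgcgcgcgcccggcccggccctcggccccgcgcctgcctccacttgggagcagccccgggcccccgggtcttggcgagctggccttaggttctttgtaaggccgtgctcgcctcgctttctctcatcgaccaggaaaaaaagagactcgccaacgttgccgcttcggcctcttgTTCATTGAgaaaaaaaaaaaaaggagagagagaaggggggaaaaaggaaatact
Dusp6, chr10:99262981-99263230 (plus strand): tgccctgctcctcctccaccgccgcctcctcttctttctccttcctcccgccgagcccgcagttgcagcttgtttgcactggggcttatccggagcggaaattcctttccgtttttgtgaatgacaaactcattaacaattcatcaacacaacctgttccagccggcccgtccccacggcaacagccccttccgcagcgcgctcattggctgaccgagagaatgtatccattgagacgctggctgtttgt
The window of Spry2 held 1 capicua octamer, read here from the other strand, which begins 54 bases before the start. The capicua octamers occurred in 2.03% of the 32851 promoter windows of the same length, the ETS octamers in 6.42% and the AP-1 heptamers in 5.20%. None of these letters was found in the windows of Etv1, Etv5, Dusp6, Spred1 or Spred2, which says only that these exact words are not in 300 bases around the starts.

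The rest of the pathway was examined with 81 other genes listed by role, of which 72 were tested; the others, Fgf7, Fgf15, Areg, Ereg, Spry3, Dusp2, Dusp9, Fosb and Egr3, were not analysed here. Of the 72, 1 was called higher and 0 lower by limma, against the 7.21% of all tested genes called in either direction, and the median log2 fold change was 0.06. By edgeR 2 were called and by DESeq2 3, against 7.15% and 11% of all genes, and 13 of 72 had an unadjusted p of at most 0.05, against 23.2%. The groups did not overlap in 3 of 72 with Con-DHT higher and in 3 with Con-DHT lower, against 8.49% and 6.62% of all tested genes. The called gene was Fosl1, which encodes the AP-1 protein FRA-1 and is induced by ERK signaling. It measured 5.50, 10.6, 19.97 and 13.9 in Con-Veh and 47.1, 77.4, 65.3 and 85.9 in Con-DHT. The groups did not overlap, the mean rose from 12.5 ± 6.07 to 68.9 ± 16.8 (SD, n = 4), and limma gave a log2 fold change of 2.46 with an SE of 0.35 and an adjusted p of 0.0028. The log2 fold change of Etv4, 2.49, was of similar size, and Fosl1 was called in each of the 8 fits that leave out a library, with adjusted p values between 0.0028 and 0.0126. The reads were few, at 5 to 80 per library.

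Upstream of the members, no ligand, receptor, adaptor or cascade gene was called by limma, against 7.21% of all tested genes. Each list, at 9 to 14 genes, is too short to set 0 calls apart from that share. Among 9 ligand genes, 0 were called by limma, edgeR or DESeq2, with log2 fold changes between -0.79 and 0.67 and a median of 0.25. The unadjusted p was 0.05 or less for 1 gene, against 23.2% of all tested genes. Among 9 receptor genes, 0 were called by limma or edgeR and 1 by DESeq2, against 11% of all tested genes by DESeq2. At an unadjusted p of at most 0.05 there were 5 of 9, 3 higher and 2 lower, against 23.2% of all tested genes. Named after their values were seen, Egfr measured 5053, 3947, 2532 and 1916 in Con-Veh and 8807, 3878, 3948 and 9878 in Con-DHT. It was highest in Con-DHT replicates 1 and 4, and its log2 fold change of 0.95 (SE 0.37) had an adjusted p of 0.161 by limma, while it was called higher with spike-in scaling. For Fgfr4, the main FGF receptor of hepatocytes, limma gave a log2 fold change of -0.51 with an SE of 0.16 and an adjusted p of 0.080, and for its coreceptor Klb 0.15 with an SE of 0.12 and an adjusted p of 0.509. The 9 adaptor genes and the 14 genes of the RAS-RAF-MEK-ERK cascade had medians of 0.06 and 0.05, with 0 called in either list by limma, edgeR or DESeq2. In these lists 0 and 2 genes had an unadjusted p of at most 0.05, against 23.2% of all tested genes.

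Among all tested genes, limma called 7.21%, edgeR 7.15% and DESeq2 11%, and limma's unadjusted p was at most 0.05 for 23.2%. The short lists of other targets and inhibitors of ERK are read beside these shares. Among 12 other feedback inhibitors 0 were called by limma, with log2 fold changes between -0.71 and 0.26, 3 genes at an unadjusted p of at most 0.05, and Lrig1 alone called by edgeR and by DESeq2 (log2 fold change -0.31, SE 0.08, adjusted p = 0.055 by limma). Besides Fosl1, the 13 other ERK-responsive genes, among them Egr1, Myc and Junb, had log2 fold changes between -1.05 and 0.66, and 0 were called by limma, edgeR or DESeq2. For Fos itself the fold change was -1.05 on the log2 scale, with an SE of 0.56 and an adjusted p of 0.295 by limma. Of the genes that regulate PEA3 factors, 0 of 5 were called by limma, edgeR or DESeq2, and the unadjusted p was 0.05 or less for 1 of them. Cic, which encodes capicua, and Cop1, which encodes the ubiquitin ligase that marks PEA3 proteins for degradation, had log2 fold changes of -0.02 (SE 0.09) and 0.12 (SE 0.09).

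Among 18 other ETS factor genes, 0 were called by limma or edgeR, 2 by DESeq2 (Ets2 and Elf1, both lower in Con-DHT), and for 5, all of them lower in Con-DHT, the unadjusted p was 0.05 or less, against 23.2% of all tested genes in either direction. Their log2 fold changes ran from -0.72 to 0.51, with a median of -0.10. Etv2, Elf5, Fev, Spib and Spdef were not analysed here.

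**Figure D4:**
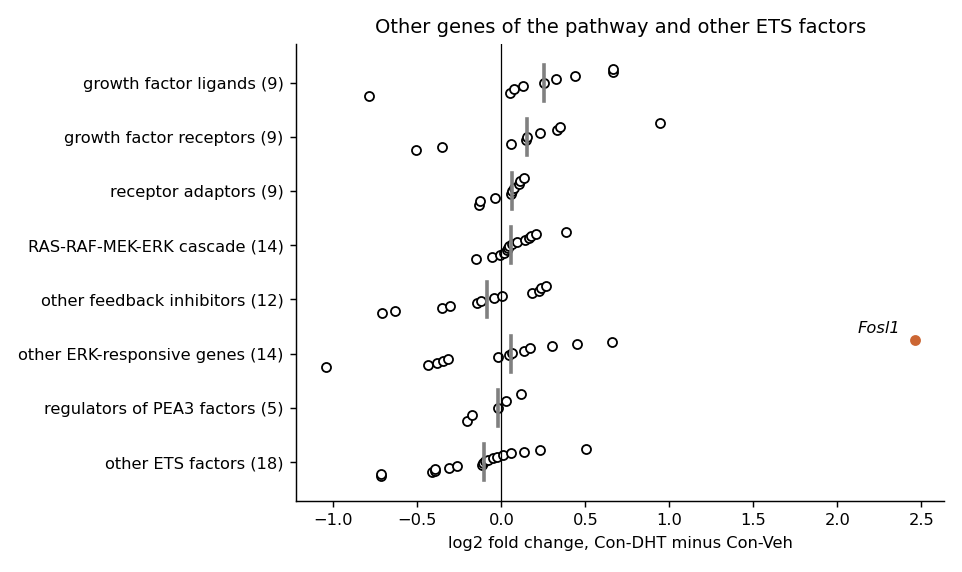
Log2 fold changes (horizontal axis, Con-DHT minus Con-Veh) of the other pathway genes and ETS factors, in rows by role with the number tested in brackets, a grey bar at each row's median and a filled point for an adjusted p of at most 0.05. Fosl1 is the only filled point, at 2.46, and the row medians lie between -0.10 and 0.25.

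To see which genes had a pattern most like that of Etv4, each gene with a mean of at least 50 was centred on its own mean over the 8 libraries, on the log2(value + 1) scale, and compared with Etv4 by the mean absolute difference over the libraries. The 5 closest of 10724 genes were Gm4335, Gm6560, Gm6682, Gm8730 and Gm6981, with mean differences of 0.13, 0.15, 0.22, 0.23 and 0.23. All 5 are annotated as processed pseudogenes, on chromosomes 15, 5, 12, 8 and 9. Gm4335, the closest, measured 17.6, 14.5, 17.0 and 14.8 in Con-Veh and 89.3, 90.0, 79.6 and 123 in Con-DHT. Like Etv4, it was highest in Con-DHT replicate 4. Because the genes were picked for their likeness to values that had chosen Etv4, and low genes passed the minimum mean through Con-DHT, their difference between the groups is a description and no test is given for it. Only uniquely mapped reads were counted, which leaves out reads that match a parent gene equally well, so the levels of such copies are uncertain.

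Of 306 processed pseudogenes tested over all genes, 132 were called higher and 1 lower by limma, with a median log2 fold change of 0.85. That is 43.5% called, against 7.21% of all tested genes (4.6% higher and 2.61% lower). The part of this in the values of Etv4 and the other genes with few reads was not tested. Among protein-coding genes, a step added after the values were seen, the closest were Gm11808, Susd4, Flnc, Ncam1 and Gstp1, at mean differences between 0.38 and 0.41. By the same measure Fosl1 lay at 0.46 from Etv4, Etv1 at 0.85 and Spry2 at 0.86, although the means of these 3 were below 50 and they were not among the genes ranked. Dusp6 was the farthest of the 9, at 1.44. Because each gene was centred over both groups, these distances largely follow the gap in log2 fold change to Etv4. They do not show whether genes vary together between the livers of a group.

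**Figure D5:**
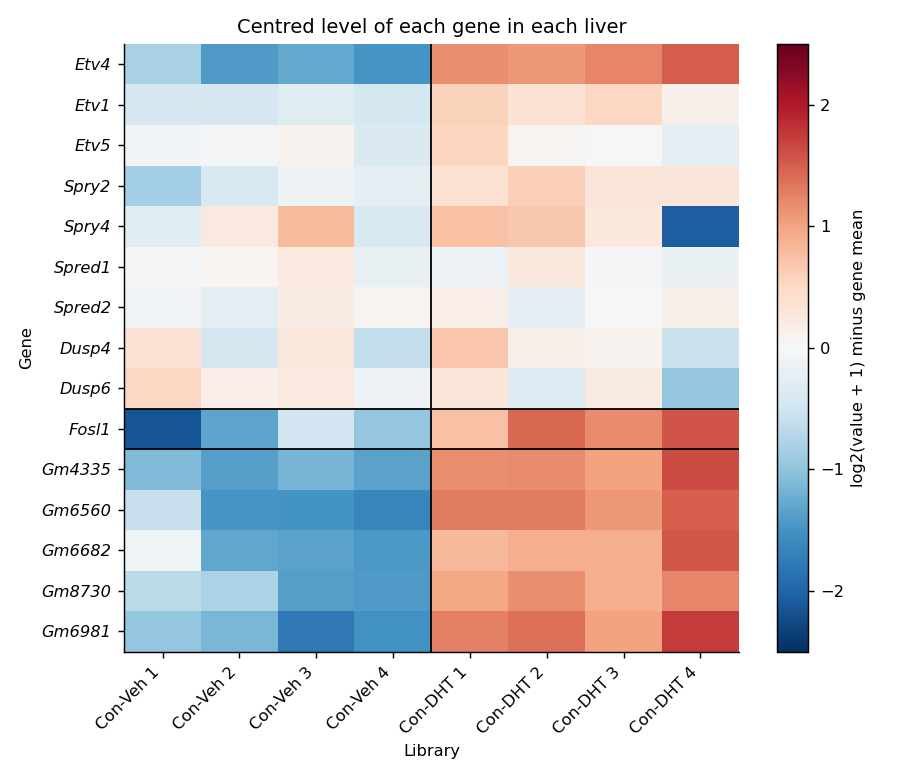
Level of each gene in each library, as log2(value + 1) minus the gene's mean over the 8 libraries (color scale), for the 9 genes, Fosl1, and the 5 genes closest to Etv4. Etv4, Fosl1 and the 5 pseudogenes are low in all Con-Veh and high in all Con-DHT livers, while among the Con-DHT livers Spry4, Dusp4 and Dusp6 are lowest in replicate 4.

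Some cell type markers differed between the groups as well. All 6 Kupffer cell markers had negative log2 fold changes, and their sum was 5357 to 6766 in Con-Veh and 3636 to 4932 in Con-DHT. By limma 3 of them were called lower (Cd5l, Vsig4 and Clec4f), against 2.61% of all tested genes. All 6 had an unadjusted p of at most 0.05 by limma, against 23.2% of all tested genes in either direction. Of 6 endothelial markers 2 were called lower by limma (Stab2 and Lyve1), against 2.61% of all tested genes. DESeq2 called the same genes and edgeR only Stab2. Lyve1 overlapped between the groups (136 to 239 in Con-Veh and 53.0 to 153 in Con-DHT). At an unadjusted p of at most 0.05 there were 4, all lower in Con-DHT, against 23.2% of all tested genes in either direction. Kdr and Pecam1 were not among these, with log2 fold changes of 0.00026 and -0.18. The sums of the 6 were 3363 to 3791 in Con-Veh and 2534 to 2846 in Con-DHT. Stab2 had the largest mean of the list, 1611 in Con-Veh and 1109 in Con-DHT. The sums overlapped between the groups for the markers of cholangiocytes (1128 to 1417 and 1160 to 1529), stellate cells (1273 to 3758 and 1864 to 2112), and dividing cells (120 to 152 and 96.1 to 185), and 0 genes of these 3 lists or of the hepatocyte list were called by limma, edgeR or DESeq2, with 0, 1, 1 and 0 at an unadjusted p of at most 0.05. Of the 6 genes listed as lymphocyte markers only Ptprc was analysed, at 159.4 to 246 in Con-Veh and 111 to 158.9 in Con-DHT. Ptprc is not specific to lymphocytes, so its values do not describe these cells alone. Neutrophil markers were not analysed here. The part of these markers in the values of Etv4, Etv1 and Spry2 was not tested, and in bulk liver a change in the number of cells of a type and a change in RNA per cell cannot be told apart.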

How the data were processed

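Liver RNA-seq libraries of 8 mice, 4 Con-Veh and 4 Con-DHT, were grouped by their labels. A detail of the mouse line is not reported here. Per the labels and the methods, total RNA with ERCC spike-ins was made into libraries with a NEBNext Ultra II kit, and the authors trimmed the reads with Trimmomatic, aligned them with STAR (GRCm39 in the submitters' processing notes), counted uniquely mapped exon reads with featureCounts and normalized them with DESeq2. Strandedness is not given in the sources used here. The values the authors deposited are a normalized count signal, that is, the reads of each gene divided by the size factor of the library. No feature had fewer than 81 reads over the 8 libraries.

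The values were whole multiples of a smallest step, and division by it gave whole reads for 100% of values, to within 0.001 reads. Log2(value + 1) was compared with limma 3.58.1 (lmFit, eBayes with an intensity trend, R 4.3.3) over 14312 mouse genes whose mean was 10 or more, with two-sided Benjamini-Hochberg adjusted p values and a threshold of 0.05. Of these, 1032 genes were called. The pseudocount of 1 understates the fold changes of low genes, and SE and intervals are limma's. edgeR 4.0.16 (quasi-likelihood, TMM), which called 1024 genes, and DESeq2 1.42.0 (Wald), which called 1569, were run on the recovered reads. Scripts were tested on simulated data. For the 12 pairs of libraries within groups, a chi-square test of the reads gave 19.2 to 61.6 per degree of freedom, so that no pair was the same library sequenced again. It cannot tell whether libraries came from the same liver, and separate mice are taken from the labels. That the mice came from separate litters or cages is not given in the labels.

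Symbols (14287 genes), gene types and union exon lengths are from GENCODE M21 (GRCm38), and plots used Python 3.11.15 and matplotlib 3.10.9. The members and lists were chosen with earlier results of these data known. Named were the 9 members, the called genes of each list (at most 5), and the 5 genes closest to Etv4, with others said to be chosen later. Alternatives were pseudocounts of 0.1 and 5, testing every gene or only those whose mean was 50 or more, no intensity trend, a replicate block, edgeR, DESeq2, scaling by spike-ins or by the total without Mup genes, and leaving out each library.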

Additional observations from a re-analysis of the deposited data

How the results depend on the processing

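The log2 fold change of Etv4 was between 2.27 and 2.68 over the 10 other settings and between 2.40 and 2.63 with each library left out. Of the 8 genes besides it, 2 (Etv1 and Spry2) were called with DESeq2, a pseudocount of 5, no intensity trend or an equal total without the Mup genes, and 0 with spike-in scaling or a mean of at least 50, where neither gene was tested; leaving out each library gave 0 to 1. Pathway calls were 3 with DESeq2 (Fosl1, Fgfr4 and Lrig1), 2 with edgeR (Fosl1 and Lrig1), with the total without Mup genes (Fosl1 and Rps6ka3) and with spike-in scaling (Fosl1 and Egfr), 0 with a mean of at least 50, where Fosl1 was not tested, and 1 to 2 with each library left out. Fosl1 was called in each of the 9 other settings in which it was tested. Other ETS factors numbered 2 with DESeq2 and 0 with each library left out. Calls over all genes were 1569 with DESeq2, 648 with a mean of at least 50, 637 with spike-in scaling and 633 to 905 with each library left out, lowest without Con-Veh replicate 4. The share of calls that were higher was 63.8%, but 88.2% with spike-in scaling and 83.9% with the total without Mup genes.

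With the replicate number as a replicate block, 0 of the 8 genes were called (Etv1 at an adjusted p of 0.077), 3 pathway genes (Fosl1, Fgfr4 and Jun), 1 ETS factor (Ets2) and 700 genes in all. Same-numbered livers showed little shared deviation (correlations between -0.15 and 0.055). The largest correlation between a Con-Veh and a Con-DHT liver was 0.34, for Con-Veh replicate 1 with Con-DHT replicate 4. The labels do not say whether the numbers pair the mice, and these correlations cannot exclude a shared litter or cage.

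Signs turned for genes that were not called: Spry4 to 0.059 with DESeq2, 0.069 with edgeR and 0.0070 with spike-in scaling, and Spred1 to 0.060 and 0.16 with the total without Mup genes and spike-in scaling. With each library left out, the log2 fold change of Spry4 was between -0.47 and 0.46, of Spred1 between -0.13 and 0.034, of Spred2 between -0.038 and 0.12 and of Dusp4 between -0.014 and 0.40. The causes were not tested. The low read numbers of Etv1, Spry2, Dusp4 and Fosl1 limit their precision.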
